A study of Astyanax mexicanus with 12 samples.

Results

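Zar1, zar1l, rbpms2b, lhx8a and bmb are 5 genes that oocytes use to build and equip the egg, and their transcripts were followed in the ovaries of the Mexican tetra Astyanax mexicanus. The genes were taken by their symbols from the deposited tables. Each symbol had a single entry among 27420 genes, and each of the 5 was among the 14627 genes with enough reads to be tested. The study sequenced bulk RNA from right ovaries of females aged about 660 days, labelled wild type, with 3 libraries in each of 4 groups. The groups were starved cavefish of the Tinaja population, untreated (control) Tinaja cavefish, starved surface fish and untreated (control) surface fish. The sources used here do not give the length of the starvation. The labels list the 3 libraries of a group as separate samples and say no more of their origin, so each p-value reflects only how far these samples differ.

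In the growing oocyte, messages are made and stored long before they are used, because the egg and the early embryo run on maternal RNA until the embryo's own genome is switched on. Zar1 and its paralog zar1l encode zinc finger proteins that bind maternal messages and hold back their translation, and zebrafish without zar1 lose their oocytes early. Rbpms2b encodes an RNA-binding protein that, in zebrafish, sits in the Balbiani body, an aggregate of RNA and organelles that sets the polarity of the young oocyte. Lhx8a encodes a LIM homeodomain transcription factor that zebrafish and mouse oocytes need in order to leave their early stages. Bmb (brambleberry) encodes a protein of the nuclear envelope that mothers supply to the egg and that zebrafish embryos need to fuse their nuclei after fertilisation.

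The libraries held 5949155 to 10198881 reads in genes, and a gene of the 5 held between 491 and 11959 reads in a library. Counting error alone was therefore 0.914% to 4.51% of a value, against a spread between replicates of 3.06% to 25.9% (coefficient of variation). Levels are CPM (counts relative to library size) after scaling by TMM (trimmed mean of M values), which corrects for differences in library composition. Changes are log2 fold changes of edgeR's quasi-likelihood test with Benjamini-Hochberg adjustment over the 14627 genes, called at an adjusted p under 0.05. The tissue label was checked with oocyte markers other than the 5 genes. The summed level of gdf9, bmp15, ddx4, dazl, figla and buc was 2037 to 2200 CPM in starved Tinaja, 1960 to 2390 in control Tinaja, 2422 to 2462 in starved surface and 1998 to 2199 CPM in control surface fish. Nobox, the other marker of that list, had no entry under its symbol in the tables used here.

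In surface fish, zar1l, rbpms2b and bmb rose with starvation, zar1 moved by as much as zar1l without passing the threshold, and lhx8a was not called. Zar1l measured 1142, 1103 and 1288 CPM in starved surface fish, against 907, 775 and 788 CPM in control surface fish. The lowest starved library lay above the highest control library. The change was 0.52 ± 0.113 (SE) on the log2 scale, or 1.43-fold (95% interval 0.27 to 0.76, adjusted p = 0.0382). Rbpms2b measured 865, 775 and 927 CPM in starved surface fish and 675, 530 and 592 CPM in control surface fish, again with no overlap. Its log2 change was 0.51 ± 0.0983 (interval 0.30 to 0.73, adjusted p = 0.0289). Bmb measured 745, 733 and 778 CPM in starved surface fish and 622, 588 and 623 CPM in control surface fish. Relative to its level, bmb spread least of the 5 genes in these groups, with an SD of 23.0 CPM in starved and 19.8 CPM in control surface fish, and its change was smaller, 0.30 ± 0.0646 (1.23-fold, adjusted p = 0.0365).

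Zar1 measured 932, 884 and 990 CPM in starved surface fish, against 740, 597 and 629 CPM in control surface fish. These groups did not overlap either, and the log2 change of 0.51 ± 0.131 (interval 0.23 to 0.80) had an adjusted p of 0.0542 by edgeR. DESeq2 (0.00306) and limma voom (0.0492) called zar1. Lhx8a measured 167, 160 and 176 CPM in starved surface fish and 141, 130 and 206 CPM in control surface fish. Here control replicate 3 lay above every starved library and the other controls lay below them. The log2 change of lhx8a was 0.08 ± 0.172 (interval -0.30 to 0.46, adjusted p = 0.838), and without control replicate 3 it was 0.31 (adjusted p = 0.257).

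Thus 3 of the 5 genes were called in surface fish, all as higher, where 3.19% of all tested genes were called, 1.74% as higher and 1.45% as lower. For 4 of the 5 genes every starved library lay above every control library, which held for 13.7% of the tested genes (14.8% in the other direction). Both counts were above their backgrounds. Because the genes were chosen with earlier results of these libraries known, these counts describe the 5 genes and are no independent evidence of a direction.

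**Figure D1:**
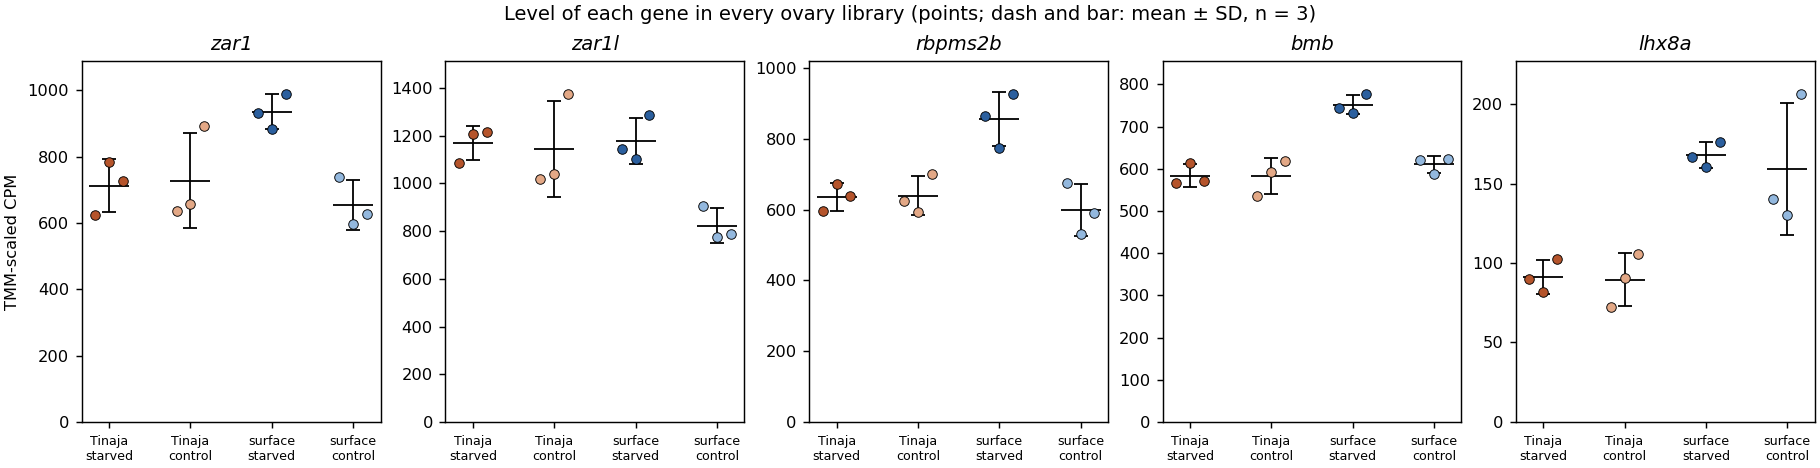
Level of zar1, zar1l, rbpms2b, bmb and lhx8a in TMM-scaled CPM (vertical axes, starting at 0) in the 12 libraries, by group; points run from replicate 1 to 3 within a group, and the dash and bar are the mean and SD of 3 libraries. For zar1, rbpms2b and bmb the 3 starved surface libraries lay above the 3 control surface libraries, zar1l was lowest in control surface fish, and the lhx8a values of Tinaja cavefish, up to 106 CPM, lay below those of surface fish.

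The calls in surface fish depended on single libraries. The call of zar1l was lost without control surface replicate 2 (adjusted p = 0.140) or 3 (0.104), and without starved surface replicate 1 (0.0676), 2 (0.0572) or 3 (0.105). The zar1l call was also lost without starved Tinaja replicate 3 (0.0576). That library is outside the comparison and enters through the gene filter, scaling, estimate of spread and adjustment, which all libraries share. The call of rbpms2b was lost without control surface replicate 2 (0.107) or 3 (0.0821) and without starved surface replicate 1 (0.0558) or 3 (0.0731). It was also lost when only the surface libraries were used (0.0561), where bmb lost its call too (0.0551) and zar1 gained one (0.0494). The call of bmb was lost without control surface replicate 2 (0.140) or 3 (0.0887), without starved surface replicate 1 (0.0721), 2 (0.0590) or 3 (0.0927), without control Tinaja replicate 2 (0.0525) and without starved Tinaja replicate 3 (0.0559). Zar1 gained a call without control surface replicate 1 (0.0445) and without control Tinaja replicate 3 (0.0173). Without 1 library at a time the log2 change kept its sign, with a range of 0.45 to 0.59 for zar1l, 0.44 to 0.61 for rbpms2b, 0.27 to 0.32 for bmb and 0.45 to 0.61 for zar1.

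The TMM factors were 0.911 to 0.960 in starved surface libraries and 1.00 to 1.03 in control surface libraries, so the scaling bears on this comparison. With library totals alone, the log2 changes were 0.402 for zar1l, 0.401 for rbpms2b, 0.399 for zar1 and 0.186 for bmb. By that scaling rbpms2b and zar1l were called (adjusted p = 0.0271 and 0.0358) and bmb was not (0.0544). The median log2 change of all tested genes was then -0.12. Relative to that median the changes were 0.53 for zar1l, 0.52 for rbpms2b and zar1, and 0.31 for bmb. Taking off the median itself corrects for composition, so these relative values are no separate check on TMM. As a plain share of gene reads, the 5 genes together took 0.365%, 0.351% and 0.379% in starved surface fish and 0.309%, 0.268% and 0.290% in control surface fish.

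In Tinaja cavefish, none of the 5 genes was called between starved and control fish. Zar1 measured 626, 785 and 728 CPM in starved Tinaja cavefish and 636, 657 and 892 CPM in control Tinaja cavefish. Zar1l measured 1087, 1206 and 1217 CPM in starved and 1020, 1038 and 1375 CPM in control Tinaja cavefish. For both genes control replicate 3 was the highest of the 6 libraries. Rbpms2b lay between 595 and 673 CPM in starved and between 592 and 701 CPM in control Tinaja cavefish, bmb between 567 and 614 and between 535 and 617 CPM, and lhx8a between 81.5 and 103 and between 72.2 and 106 CPM. The starved and control ranges overlapped for each of the 5 genes. Among all tested genes the groups did not overlap for 4.69% with higher and 3.93% with lower levels in starved fish.

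The log2 changes in Tinaja cavefish ran from -0.03 for zar1 to 0.03 for zar1l, with an adjusted p of 1 for each gene. The 95% intervals were -0.32 to 0.25 for zar1, -0.21 to 0.28 for zar1l, -0.22 to 0.21 for rbpms2b, -0.14 to 0.15 for bmb and -0.36 to 0.42 for lhx8a. By edgeR, 0 of the 5 genes had an unadjusted p under 0.05, where 578 of the 14627 tested genes did. DESeq2 and limma voom called 0 of the 5, and 18 and 1 of all tested genes. Of all tested genes, 0.0205% were called in this comparison (0.00684% as higher and 0.0137% as lower), so 0 of 5 is near the background.

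When the responses of the populations were tested against each other, 0 of the 5 genes were called by edgeR, where 0.0684% of all tested genes were called (0.0205% as higher and 0.0479% as lower). The response in Tinaja cavefish minus that in surface fish was -0.54 (95% interval -0.95 to -0.14, adjusted p = 0.220) for zar1 and -0.49 (-0.83 to -0.14, 0.208) for zar1l on the log2 scale. It was -0.52 (-0.82 to -0.22, 0.172) for rbpms2b, -0.29 (-0.49 to -0.10, 0.199) for bmb and -0.05 (-0.59 to 0.49, 0.946) for lhx8a. Before adjustment 4 of the 5 genes had p under 0.05, as did 2264 of the 14627 tested genes. DESeq2 called 2 of the 5, rbpms2b (0.0153) and bmb (0.0300), and 270 of all tested genes. Limma voom called 0 of the 5 and 8 of all tested genes. By edgeR, therefore, no difference between the populations in the starvation response of the 5 genes passed the threshold.

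**Figure D2:**
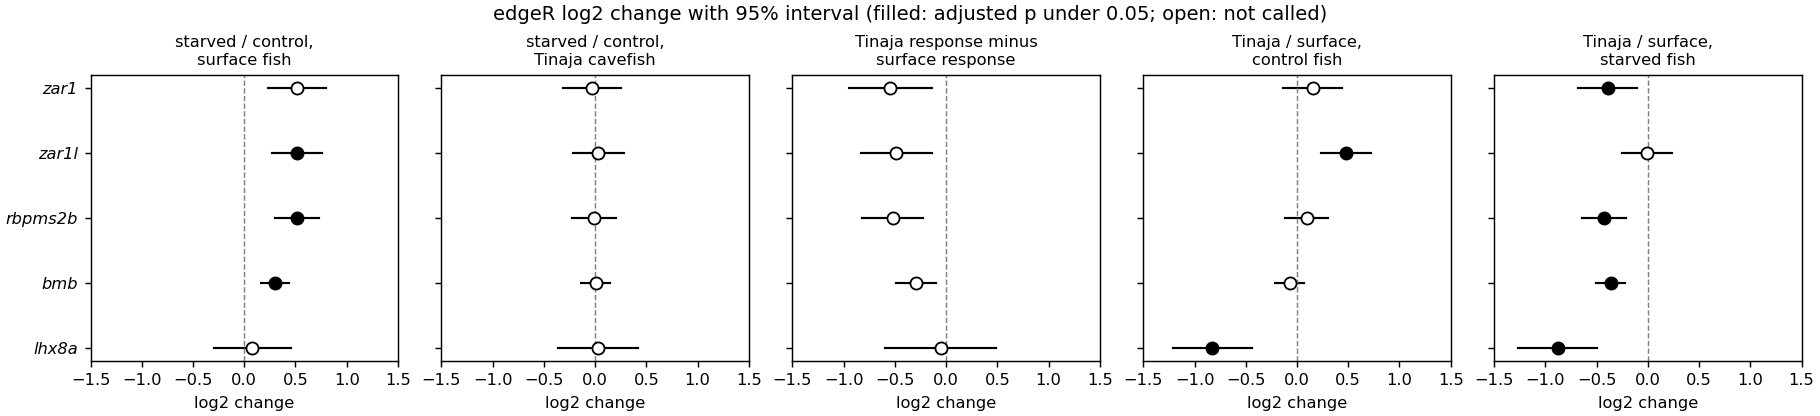
edgeR log2 changes (horizontal axes) of zar1, zar1l, rbpms2b, bmb and lhx8a with 95% intervals in the 5 comparisons; filled points passed an adjusted p of 0.05 and open points did not. In surface fish the changes of zar1, zar1l and rbpms2b lay at 0.51 to 0.52, in Tinaja cavefish those of the 5 genes lay within 0.03 of 0, and lhx8a stood at -0.83 and -0.88 between the populations.

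Between the populations, lhx8a was lower in Tinaja cavefish in both feeding states. In control fish it measured 72.2, 90.5 and 106 CPM in Tinaja cavefish, against 141, 130 and 206 CPM in surface fish, a log2 change of -0.83 ± 0.176 (0.563-fold, adjusted p = 0.00450). In starved fish it measured 90.03, 81.5 and 103 CPM in Tinaja cavefish, against 167, 160 and 176 CPM in surface fish, a change of -0.88 ± 0.175 (0.544-fold, adjusted p = 0.00260). The populations did not overlap in either feeding state. The call held in each of the 22 alternative fits of both comparisons, with log2 changes of -0.97 to -0.60 in control fish and -0.97 to -0.76 in starved fish. Of the 22 fits, 12 left out 1 library each, in part from outside the comparison. The fit on reads recovered from a second deposited table could not differ, because those reads equal the counts.

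Zar1l was higher in control Tinaja cavefish, with 1020, 1038 and 1375 CPM, than in control surface fish, with 907, 775 and 788 CPM. The log2 change was 0.48 ± 0.113 (1.39-fold, adjusted p = 0.00727), and the call held in each of 22 alternative fits (0.32 to 0.55). In starved fish, zar1l measured 1170 ± 72.1 CPM in Tinaja cavefish and 1178 ± 97.6 CPM in surface fish (SD, n = 3 each), a log2 change of -0.01 with an interval of -0.25 to 0.23 (adjusted p = 0.953). In control fish the values of zar1 were 728 ± 142 CPM in Tinaja cavefish and 655 ± 75.2 CPM in surface fish (log2 change 0.15, adjusted p = 0.402). Rbpms2b and bmb also overlapped between the control fish of the populations (log2 changes 0.09 and -0.07, adjusted p = 0.496 and 0.432). So 2 of the 5 genes were called between control fish, where 32.4% of all tested genes were called. Of these 1 was higher and 1 lower, against 16% and 16.4% of all tested genes. The populations did not overlap for zar1l, as for 23.2% of all tested genes in that direction, nor for lhx8a, as for 23.8%.

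In starved fish, zar1, rbpms2b and bmb were lower in Tinaja cavefish than in surface fish, along with lhx8a. Bmb measured 567, 614 and 571 CPM in starved Tinaja cavefish, against 745, 733 and 778 CPM in starved surface fish (log2 change -0.36 ± 0.0646, adjusted p = 0.000957). Rbpms2b measured 595, 673 and 639 CPM in starved Tinaja cavefish, against 865, 775 and 927 CPM in starved surface fish (-0.43 ± 0.0983, adjusted p = 0.00469). Zar1 measured 626, 785 and 728 CPM in starved Tinaja cavefish and 932, 884 and 990 CPM in starved surface fish (-0.39 ± 0.131, adjusted p = 0.0321). For these 3 genes the populations did not overlap in the starved state. The zar1 call was lost without starved Tinaja replicate 1 (adjusted p = 0.113) or 3 (0.0647) and without starved surface replicate 1 (0.0645) or 3 (0.0947). It was also lost with upper-quartile factors (0.0569) and with library totals alone (0.0736). With library totals alone the log2 change of zar1 was -0.27. The median of all genes then moved to 0.13, and zar1 stood at -0.40 relative to that median. Thus 4 of the 5 genes were called as lower, where 20% of all tested genes were lower, 20.3% higher and 40.3% called in either direction. For the same 4 genes all starved Tinaja libraries lay below all starved surface libraries, which held for 26% of the tested genes (26.6% in the other direction). Other oocyte genes were lower there too, 4 of the 6 other oocyte markers and 13 of 24 other genes of RNA binding and translational control, with 1 of the 24 higher. So were 5 of 9 other genes of the Balbiani body and 2 of 5 other oocyte transcription factor genes. Of 14 other genes in the list of fertilisation and egg activation, 3 were higher, spo11 among them, and 3 lower. These sets share genes such as dazl and are not separate counts. Measured against those 6 markers, the difference was -0.08 for zar1 and -0.05 for bmb, both with overlap, and -0.11 for rbpms2b on the log2 scale. This comparison shares its libraries with the starvation comparisons, so these values are not separate evidence for them.

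The order of the 4 groups therefore took 3 forms. For zar1, rbpms2b and bmb, starved surface fish stood highest (935, 856 and 752 CPM on average) and the other groups overlapped in their libraries. Of the libraries of those groups, 1 reached into the starved surface range, control Tinaja replicate 3 for zar1. For zar1l, starved surface, starved Tinaja and control Tinaja fish lay together (1178, 1170 and 1144 CPM) above control surface fish (823 CPM). For lhx8a, starved and control surface fish (168 and 159 CPM) lay above starved and control Tinaja cavefish (91.4 and 89.6 CPM), with overlap between the feeding states of each population.

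Ratios between genes of the same library do not depend on how libraries are scaled. They compare read counts and not molecules, since no transcript lengths were used. The ratio of zar1 to zar1l was 0.816, 0.802 and 0.768 in starved surface fish and 0.816, 0.771 and 0.798 in control surface fish. The difference between these groups was 0.000509 on the log2 scale (two-sided exact permutation p = 1). In Tinaja cavefish the ratio was lower, 0.576, 0.650 and 0.598 in starved and 0.624, 0.632 and 0.649 in control fish. Every Tinaja library lay below every surface library, a log2 difference of -0.36. Zar1l to rbpms2b was higher in Tinaja cavefish, at 1.63 to 1.96, than in surface fish, at 1.32 to 1.46 (log2 difference 0.39). Both ratios thus place zar1l relatively higher in Tinaja cavefish.

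Zar1 and rbpms2b kept nearly the same proportion in the 4 groups. Their ratio averaged 1.12 ± 0.0601 in starved Tinaja, 1.13 ± 0.130 in control Tinaja, 1.09 ± 0.0398 in starved surface and 1.09 ± 0.0318 in control surface fish (SD, n = 3 each). Across populations it differed by 0.04 on the log2 scale (exact permutation p = 0.555). The ratio of lhx8a to bmb was 0.133 to 0.180 in Tinaja cavefish and 0.219 to 0.331 in surface fish, a log2 difference of -0.63. The populations were compared for 11 ratios, the 10 pairs of the 5 genes and rbpms2b to its paralog rbpms2a, by a two-sided exact permutation test within each feeding state that was added after the values were seen. The ratios zar1 to zar1l, zar1l to rbpms2b and lhx8a to bmb were among 7 of 11 that gave an exact permutation p = 0.005, the smallest that its 400 arrangements allow, and adjusted p = 0.00786 over the 11 ratios. The others were zar1, zar1l and rbpms2b to lhx8a and zar1l to bmb, so the 7 are the pairs in which zar1l or lhx8a stands with another of the 5 genes. In each of the 7 the Tinaja and surface libraries did not overlap. The exact permutation p therefore followed from a separation already seen and adds no evidence to it. The 7 ratios repeat the differences of zar1l and lhx8a and are not separate results. The share of other gene pairs that separate in this way is not given here. With 3 against 3 libraries, the exact permutation test of starvation within a population cannot go below p = 0.1.

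**Figure D3:**
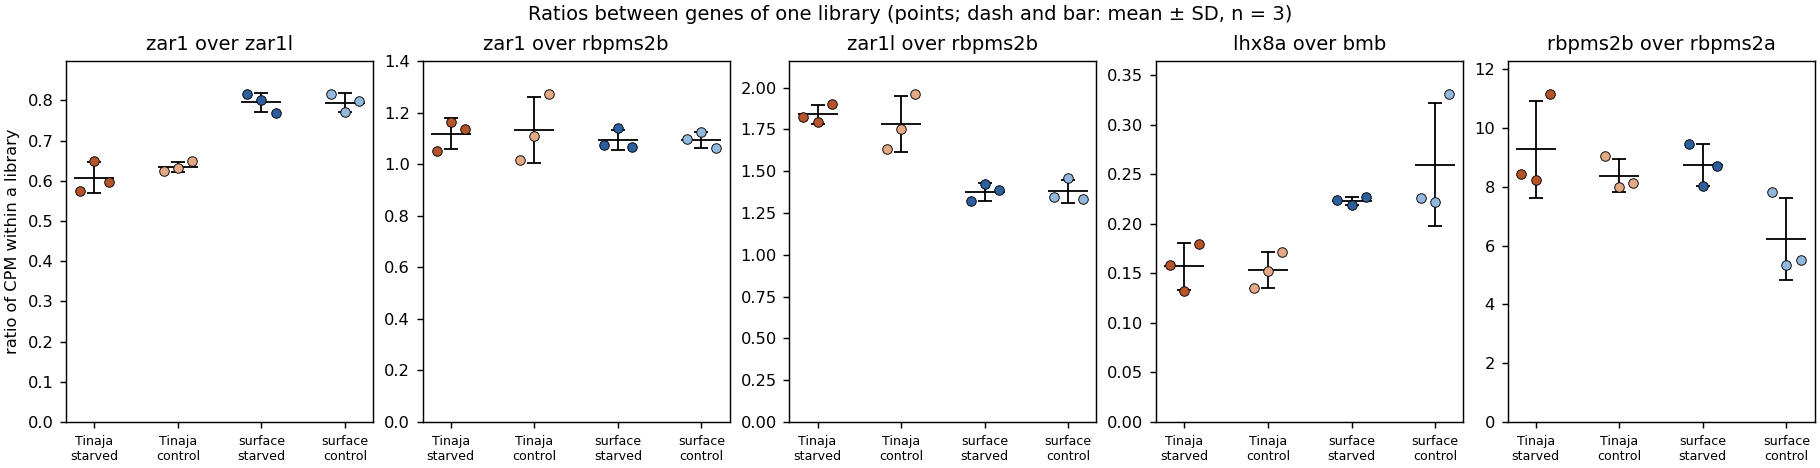
Ratios of CPM between 2 genes of the same library (vertical axes, starting at 0) for 5 pairs, by group; points are the 12 libraries, and the dash and bar are the mean and SD of 3. Zar1 over zar1l was 0.576 to 0.650 in the 6 Tinaja libraries and 0.768 to 0.816 in the 6 surface libraries, whereas zar1 over rbpms2b overlapped between the populations.

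Rbpms2a, which encodes the closest relative of rbpms2b and acts with it in zebrafish oocytes, was looked up after the values were seen. It measured 98.2 ± 7.51 CPM in starved and 97.7 ± 10.6 CPM in control surface fish (adjusted p = 0.985), beside the rise of rbpms2b. The ratio of rbpms2b to rbpms2a was 9.46, 8.02 and 8.72 in starved surface fish and 7.82, 5.33 and 5.52 in control surface fish. These groups did not overlap (log2 difference 0.51, two-sided exact permutation p = 0.1, the smallest possible). Near-identical stretches of paralogs can share reads, so the division of reads between such pairs is uncertain.

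Each of the 5 genes was also measured against the 6 other oocyte markers. Log2 CPM minus the mean log2 CPM of these markers was higher in starved than in control surface fish by 0.37 for zar1, zar1l and rbpms2b and by 0.15 for bmb, with no overlap between the groups (two-sided exact permutation p = 0.1 for each, the smallest possible). That p follows from the lack of overlap alone. In plain CPM 13.7% of all tested genes had no overlap in this direction, and the share on the scale of these markers is not given here. For lhx8a the difference was -0.04 (exact permutation p = 1). In Tinaja cavefish the starved minus control differences of the 5 genes were 0.04 to 0.10, with overlap for each. Between control fish of the populations, Tinaja minus surface was 0.58 for zar1l and -0.70 for lhx8a, and between starved fish 0.31 and -0.57, in each case without overlap (exact permutation p = 0.1). Between starved fish 4 of the 6 markers were called as lower in Tinaja cavefish, and zar1l itself stood at -0.01. For zar1 it was 0.25 in control fish, without overlap (exact permutation p = 0.1), and -0.08 in starved fish, with overlap (exact permutation p = 0.2). For rbpms2b it was 0.21 in control fish, with overlap (exact permutation p = 0.2), and -0.11 in starved fish, without (exact permutation p = 0.1). For bmb it was 0.04 and -0.05, both with overlap (exact permutation p = 0.7 and 0.4).

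Granulosa cells, the somatic cells that surround the oocyte, were followed through 12 marker genes. Their summed level was 16.7 to 24.6 CPM in starved surface fish and 24.95 to 29.9 CPM in control surface fish. Foxl2a held 0 to 1 reads in a library of either surface group. In starved surface fish cyp19a1a, hsd17b1 and inha also fell to 0 reads in at least 1 library. Of 8 granulosa markers tested, the gonadotropin receptor gene lhcgr fell (adjusted p = 0.0491) and 7 were not called. The 5 theca and steroid synthesis markers summed to 1.51 to 3.88 CPM in starved and 2.41 to 6.44 CPM in control surface fish, with star at 0 in each starved library. The 9 stroma markers summed to 47.3 to 54.6 CPM in starved and 50.1 to 84.8 CPM in control surface fish. In surface fish the stroma and granulosa sums lean on their most abundant genes, fbln1 for stroma and nr5a2 for granulosa. In Tinaja cavefish the most abundant granulosa marker was lhcgr, at 14.7 CPM in starved and 13.1 CPM in control fish on average. That of stroma was col1a1a, at 25.6 CPM in starved and 55.2 CPM in control Tinaja cavefish. Over the tested markers the median log2 change was -1.2 for granulosa (1 of 8 above 0), -1.77 for theca (0 of 3) and -1.04 for stroma (1 of 6), against -0.01 for all tested genes. These medians rest in part on very few reads, so their size is uncertain. A starved surface library held 2 to 3 reads of foxl2b, 0 to 4 of cyp19a1a and 0 to 5 of inha. It held 1 to 2 reads each of cyp17a1 and hsd3b2. The changes of these genes were not called. In Tinaja cavefish the granulosa sum was 32.3 to 44.5 CPM in starved and 27.2 to 48.8 CPM in control fish. Foxl2a had 0 reads in both Tinaja groups, which differs from the surface groups by at most 1 read in a library. The theca sum was 8.19 to 18.4 CPM in starved and 10.1 to 13.6 CPM in control Tinaja cavefish, above both surface groups. The 6 smooth muscle markers summed to 52.2 to 93.9 CPM in starved Tinaja, 66.0 to 86.6 in control Tinaja, 6.43 to 29.7 in starved surface and 21.9 to 28.7 CPM in control surface fish. The theca, smooth muscle and blood vessel sums were higher in Tinaja cavefish without overlap in both feeding states, whereas lhx8a was lower. Sums of stroma, of macrophage and neutrophil, and of red blood cell markers overlapped between the populations in both feeding states. Slc4a1a, a red blood cell marker, averaged 1.58 CPM in starved Tinaja and 4.48 CPM in starved surface fish (called as lower, adjusted p = 0.0163). It was not called between control fish. The smooth muscle sum leaned on myh11a, at 44.4 CPM in control Tinaja and 7.35 CPM in control surface fish on average. Desma went the other way in control fish (log2 change -0.31, not called). So did the theca marker nr5a1b, at 0 in control Tinaja and 0.683 CPM in control surface fish. The granulosa sum was higher in Tinaja cavefish without overlap between starved fish, and overlapped between control fish. Zar1l was called by edgeR between control fish and not between starved fish. Measured against the 6 other oocyte markers, zar1l was higher in Tinaja cavefish in both feeding states (log2 difference 0.58 in control and 0.31 in starved fish). In starved fish zar1l itself stood at -0.01, and 4 of the 6 markers were called as lower in Tinaja cavefish. The difference of 0.31 there thus came from lower markers and not from a higher zar1l. The part of these sums in the differences of lhx8a and zar1l was not tested. The summed granulosa level moved opposite to zar1l, rbpms2b and bmb in surface fish, and its part in their change was not tested. In a bulk ovary, fewer cells of a type and less RNA per cell cannot be told apart.

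Other genes of the same processes were taken from 4 lists written by hand with earlier results of these libraries known. Among genes of RNA binding and translational control in the oocyte other than the 5 genes, 5 of 24 rose in starved surface fish and 19 were not called, where 1.74% of all tested genes were called as higher. Btg4, which encodes an adaptor for the clearance of maternal RNA, measured 620 ± 30.4 CPM in starved and 411 ± 74.0 CPM in control surface fish (adjusted p = 0.0300). Celf1, an RNA-binding protein gene, measured 288 ± 8.11 and 241 ± 9.01 CPM (0.0310), lsm14ab, of stored messenger particles, 211 ± 10.9 and 178 ± 6.32 CPM (0.0477), and igf2bp3, another RNA-binding protein gene, 261 ± 12.03 and 203 ± 10.0 CPM (0.0485) in the same order of groups. The fifth was cpeb1b, which encodes a regulator of poly(A) tails and translation (0.0488). The median log2 change of the 24 genes was 0.23, against -0.01 for all tested genes, and 21 of 24 had a change above 0, as did 48.4% of all tested genes. With library totals alone 1 rose and 18 of 24 were above 0, where the median of all genes was -0.12.

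Among oocyte transcription factor genes, 1 of 5 rose in starved surface fish, where 1.74% of all tested genes were called as higher. It was pou5f3, which in zebrafish helps switch on the embryo's genome. Pou5f3 measured 916 ± 60.7 CPM in starved and 723 ± 20.6 CPM in control fish (adjusted p = 0.0389). Nanog, which acts with it, measured 778 ± 75.0 and 618 ± 17.3 CPM (0.0678), foxr1 98.7 ± 20.3 and 75.2 ± 6.27 CPM (0.1499) and tbpl2, a TATA-binding protein of the oocyte, 21.1 ± 1.34 and 18.5 ± 2.95 CPM (0.634), starved before control. Lhx8a, in the same list, had the values given above. Nobox, sohlh1, sohlh2, lhx8b, taf4b and zglp1 had no entry under those symbols in the tables used here, and sox3 had too few reads to be tested.

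Among 9 genes of the Balbiani body and egg polarity, 0 were called by edgeR in surface fish, where 3.19% of all tested genes were called. Of the 9 genes, 3 had an unadjusted p under 0.05. DESeq2 called 3 and limma voom 0. Of the 14627 tested genes, 3296 had an unadjusted p under 0.05 there, and DESeq2 called 1301 and limma voom 443. Buc, the organiser of the Balbiani body, measured 1393 ± 14.4 CPM in starved and 1192 ± 64.8 CPM in control surface fish (adjusted p = 0.0907). Dazl, an RNA-binding protein gene of germ cells, measured 164 ± 4.29 and 132 ± 9.44 CPM (0.0783), grip2a 142 ± 20.05 and 114 ± 6.43 CPM (0.0907) and sybu, of microtubule transport, 438 ± 46.9 and 393 ± 18.2 CPM (0.395), starved before control. The median log2 change was 0.16. Buc and dazl are also among the oocyte markers used above.

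The list of fertilisation and egg activation had 14 tested genes other than bmb, among them spo11, a gene of meiosis. Of the 14 genes, 3 rose in starved surface fish and 11 were not called, where 1.74% of all tested genes were called as higher. The median log2 change of the 14 genes was 0.38, with 14 of 14 above 0 (13 with library totals alone). Of all tested genes, 48.4% were above 0. Those that rose were cdc20, an activator of the anaphase promoting complex (1266 ± 93.6 CPM in starved, 942 ± 37.1 CPM in control, adjusted p = 0.0294), the cyclin gene ccnb2 (2427 ± 139 and 1663 ± 203 CPM, 0.0358), and kpna7, an importin gene of the egg (1193 ± 54.6 and 877 ± 68.2 CPM, 0.0488). Npm2b, a histone chaperone gene of the egg, measured 260 ± 8.90 CPM in starved and 167 ± 20.2 CPM in control surface fish (0.0556). The counts of called genes in the 4 lists depended on single libraries. Without control surface replicate 2 or 3, or starved surface replicate 1 or 3, 0 genes were called in each list. Without control Tinaja replicate 3 the counts were 9 for RNA binding, 2 for transcription factors, 2 for the Balbiani body and 7 for fertilisation. DESeq2 called 11, 2, 3 and 7 genes in that order, and 1301 of the 14627 tested genes.

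**Figure D4:**
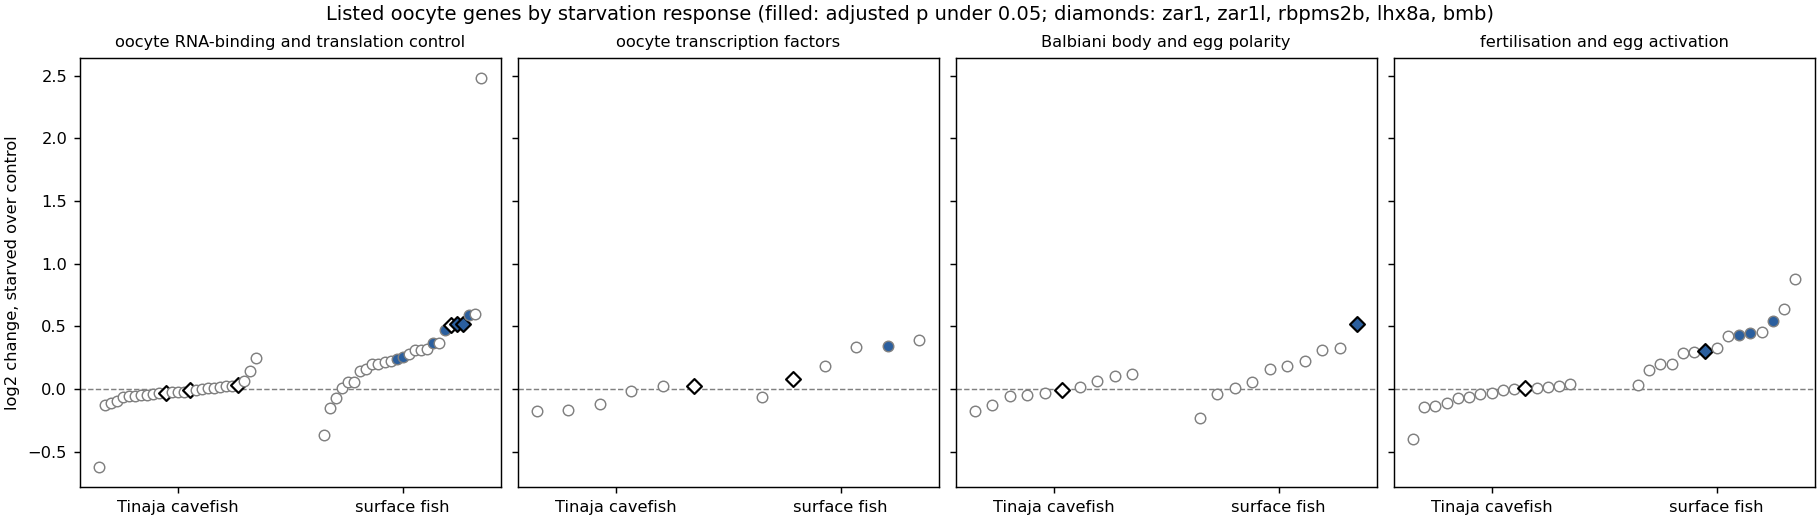
Log2 change of starved over control fish (vertical axis) of the tested genes of 4 oocyte lists, in Tinaja cavefish (left of each panel) and surface fish (right), in rising order within each; filled symbols passed an adjusted p of 0.05, and diamonds are zar1, zar1l, rbpms2b, lhx8a and bmb. In surface fish 21 of 24 RNA-binding genes and 14 of 14 fertilisation genes other than the 5 lay above 0, as did 48.4% of all tested genes. No gene of these lists is filled in Tinaja cavefish.

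In Tinaja cavefish, 0 genes of these 4 lists were called between starved and control fish by edgeR, DESeq2 or limma voom. Of the 24 RNA-binding genes 1 had an unadjusted p under 0.05, and of the others 0, where 578 of the 14627 tested genes did. The median log2 changes there were -0.02 for RNA binding, -0.12 for transcription factors, -0.04 for the Balbiani body and -0.03 for fertilisation. Tested for a difference between the responses, 0 genes of the 4 lists were called by edgeR. Of their 24, 5, 9 and 14 genes, 11, 3, 1 and 9 had an unadjusted p under 0.05, where 2264 of the 14627 tested genes did. DESeq2 called 4, 1, 0 and 3 in that order, and limma voom 0, where they called 270 and 8 of all tested genes.

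Between control fish of the populations, the RNA-binding list held 3 genes higher and 3 lower in Tinaja cavefish out of 24, near the 16% and 16.4% of all tested genes. Btg4 was higher, at 763 ± 107 CPM in control Tinaja and 411 ± 74.0 CPM in control surface fish (adjusted p = 0.000188). In the fertilisation list 4 of 14 were higher and 2 lower, to be read against the same shares. Spo11, named here because of its values, was among the higher genes. It measured 43.2 ± 5.99 CPM in control Tinaja and 4.22 ± 2.76 CPM in control surface fish (adjusted p = 0.00224). Ca15b, a carbonic anhydrase gene, measured 54.0 ± 14.8 CPM in control Tinaja and 2.51 ± 0.437 CPM in control surface fish (1.49e-07), and cd9b, a tetraspanin gene, 232 ± 28.1 and 156 ± 6.60 CPM (0.00173). Lrmp, which like bmb serves the zebrafish pronuclei and is named here because of its values, was lower, at 386 ± 14.7 CPM in control Tinaja and 463 ± 18.9 CPM in control surface fish (0.00451). Of the 9 Balbiani body genes, tdrd6, a germ granule gene, was lower (373 ± 36.2 and 456 ± 19.3 CPM, 0.0299), and hwa, an axis determinant of the zebrafish egg, was not called (17.6 ± 2.90 and 22.7 ± 0.613 CPM, 0.0539). Of the transcription factor genes other than lhx8a, pou5f3 was higher (862 ± 86.9 and 723 ± 20.6 CPM, 0.0227), and foxr1 was not called (58.2 ± 9.11 and 75.2 ± 6.27 CPM, 0.0854), control Tinaja before control surface fish.

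Likeness of pattern was measured over the 12 libraries as the root mean square difference of log2 CPM, each gene centred on its own mean, and no test was made of it. The named genes nearest to zar1 were the ribosomal protein gene rps19 (0.0620), the RNA-binding protein gene hnrnpa1a (0.0626) and the mRNA export gene alyref (0.0639), against a median of 0.406 over all genes. Nearest to zar1l were rpl13a (0.0733), the acid phosphatase gene acp5a (0.0800) and rpl7 (0.0878), and nearest to rbpms2b were cdca9 (0.0602), the glycolytic gene tpi1b (0.0613) and rpl8 (0.0757). Nearest to bmb were dlst, of the citric acid cycle (0.0415), cwc22, of the spliceosome (0.0503), and ywhaba, a 14-3-3 protein gene (0.0526), and nearest to lhx8a were TRAPPC10 (0.125), TMEM169 (0.139) and STK40 (0.147).

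Within the 5 genes, rbpms2b and zar1 were closest to each other, with a difference of 0.0811, which made rbpms2b the 17th nearest of 14626 genes to zar1 and zar1 the 11th nearest to rbpms2b. Zar1l, the paralog of zar1, was the 662nd nearest to it (0.185). Lhx8a stood apart from the other 4 genes, with differences of 0.367 to 0.589, and bmb was the nearest of them. Libraries of the same population share their origin, so likeness over the 12 libraries is partly a likeness in the difference between populations.

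The neighbours of the 5 genes on the chromosome were read from the RefSeq annotation of the assembly AstMex3_surface, which gave gene order only, since the sources used here do not name the build behind the counts. Zar1 lay beside fryl and zar1l beside fryb, which encode proteins of the furry family. Rbpms2b lay between slc25a44b and cpeb1b. Of the 10 adjacent protein-coding genes, 7 were tested. In surface fish 1 of the 7 was called with starvation, where 3.19% of all tested genes were called, 1.74% as higher. That gene was cpeb1b, already counted in the RNA-binding list. Cpeb1b measured 1492 ± 99.1 CPM in starved and 1078 ± 82.3 CPM in control surface fish (adjusted p = 0.0488). Its neighbour rbpms2b rose there too, whereas slc25a44b on the other side measured 72.6 ± 0.321 CPM in starved and 71.6 ± 0.573 CPM in control surface fish (adjusted p = 0.904). Beside lhx8a, tyw3 measured 14.4 ± 0.151 CPM in control Tinaja and 12.5 ± 1.57 CPM in control surface fish (adjusted p = 0.396). Of the 7 tested neighbours, fryl, kl, faap24 and ankrd27 were lower in control Tinaja than in control surface fish, a count of 4 against the 16.4% of all tested genes that were called as lower.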

How the data were processed

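Bulk RNA from 12 right ovaries was sequenced. Per the labels' protocols, libraries were depleted of ribosomal RNA and directional. Of tools, the submitters' processing notes list STAR 2.7.10b and RSEM and no roles. RNA input and PCR cycles varied between libraries, per the labels' protocols. The build, annotation and strand setting behind the counts are not given in the sources used, so values of overlapping, antisense and near-identical genes are uncertain. The authors deposited raw counts of 27420 genes. Entries that name no gene (unmapped 7.28% to 10.1%, multimapping 9.91% to 16.8%, without a feature 14.1% to 17.9%, ambiguous 0.276% to 0.368% of reads) were left out. A second table deposited by the authors is a signal of 14627 genes, whose values equal the TMM-scaled CPM computed here within a relative difference of 4.97e-15. Divided by its step, 100% of that signal gave whole reads (tolerance 0.001), and edgeR on those reads called 466 genes in starved surface fish, as on the deposited counts.

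Genes were filtered with filterByExpr (minimum count 10) and tested with edgeR 4.0.16 in R 4.3.3 by a robust quasi-likelihood fit of 12 libraries with 1 mean per group, in 5 comparisons, after a check on simulated data. Standard errors are approximate, taken from the log2 change and the F statistic. DESeq2 1.42.0 and limma 3.58.1 (voom) were alternatives. Log2 CPM used a prior count of 2. The 5 genes and the lists were chosen with earlier results of these data known. The rule for named genes took the 5 genes, per list the 4 of smallest adjusted p in the surface comparison and 2 in the comparison of control fish, and the 3 nearest genes by pattern. An item that the rule took is not reported here. Intervals of read counts cover counting error only.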

Additional observations from a re-analysis of the deposited data

How the results depend on the processing

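Of 545 recomputed log2 changes of the 5 genes, 483 kept their direction and side of the threshold, 28 lost a call, 7 gained one and 27 changed sign. Of the 483, 25 came from reads recovered from the second table, which equal the counts, so these could not change. The sign changes were in values that were not called. In surface fish lhx8a was -0.037 with library totals alone and ranged from -0.0445 to 0.311 when 1 library was left out, and its difference between responses was 0.0682 and -0.28 to 0.0865. In Tinaja starvation, leaving out 1 library gave -0.12 to 0.14 for zar1, -0.0453 to 0.19 for zar1l, -0.0592 to 0.0637 for rbpms2b, -0.11 to 0.17 for lhx8a and -0.0526 to 0.0506 for bmb. There bmb was -0.00786 with upper-quartile factors and -0.0126 with thinned libraries, and rbpms2b 0.00112 without the low-count filter. Zar1 between control fish ranged from -0.0227 to 0.25. Zar1l between starved fish was 0.0212 with upper-quartile factors, 0.11 with library totals alone, 0.000825 with the compared libraries alone, and -0.0585 to 0.0560 when 1 library was left out. The cause was not tested.

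The count of called genes in surface fish was 466, but 701 with library totals alone (117 higher and 584 lower, against 254 and 212), 141 with the compared libraries alone, 1301 with DESeq2, and 27 to 864 when 1 library was left out. Of the 5 genes 0 to 4 were then called. Between starved fish, library totals alone gave 3865 higher and 1984 lower genes, against 2963 and 2931. In Tinaja starvation 3 genes were called, against 0 with the compared libraries alone, 18 with DESeq2, 1 with voom, and 3 to 34 when 1 library was left out. For the difference between responses 10 were called, against 270 with DESeq2 (2 of the 5 genes) and 8 to 49 when 1 library was left out.

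No clear pairing by replicate number was seen, but 3 libraries per group cannot exclude it. Deviations of same-numbered libraries correlated at -0.00457 to 0.0562 between the surface groups and -0.311 to -0.0410 between the Tinaja groups. Between the populations they correlated at -0.0577 to 0.0510 in control and 0.0180 to 0.0826 in starved fish. Not every library correlated best with its own number. Those that did were starved Tinaja replicates 1 and 3 against starved surface fish, and replicate 1 of starved surface and of control Tinaja fish against control surface fish. With the replicate number as a block, 80 genes, against 466 without it, and 1 of the 5, rbpms2b (adjusted p = 0.0486), were called in surface fish. Relative to gdf9 and bmp15 only, Tinaja minus surface was 0.71 for zar1l and 0.17 for bmb in control fish and 0.01 for bmb in starved fish. With 3 libraries per group, small changes could go uncalled. In surface fish zar1 at 1.43-fold was not called (SE 0.131), whereas zar1l and rbpms2b, also at 1.43-fold, were called (SE 0.113 and 0.0983).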

Other observations

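Single libraries stood out within a group for some of the 5 genes. Control surface replicate 3 held 1506 reads of lhx8a (206 CPM), against 1166 and 961 reads (141 and 130 CPM) in the other controls. In the same library the summed granulosa markers were 24.95 CPM, the lowest of the control surface fish. Control Tinaja replicate 3 held the highest levels of zar1 and zar1l of its group, 892 and 1375 CPM, and its summed granulosa markers, 27.2 CPM, were the lowest of its group, against 48.8 and 44.9 CPM in replicates 1 and 2. Its ratio of zar1 to zar1l, 0.649, lay with those of the other control Tinaja libraries (0.624 and 0.632). The 5 genes together took 0.364% of gene reads in that library, against 0.302% and 0.307% in the other control Tinaja libraries. Control surface replicate 1 held the highest zar1 and zar1l of its group (740 and 907 CPM) and also the highest granulosa sum (29.9 CPM). Starved surface replicate 3 likewise held the highest zar1 and zar1l (990 and 1288 CPM) and the highest granulosa sum (24.6 CPM). In starved Tinaja cavefish, replicate 2 had the highest zar1 (785 CPM) and the lowest sum (32.3 CPM), and replicate 3 the highest zar1l (1217 CPM) and the highest sum (44.5 CPM). The part of the granulosa markers in these values was not tested.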
